A study of Sus scrofa with 21 samples.

Results

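ACP5 and RBP4 were followed in the endometrium of Large White sows. ACP5 encodes uteroferrin, an iron-containing acid phosphatase that pig uterine glands secrete, and RBP4 encodes the plasma carrier of retinol. The members were all probes whose RefSeq accession belongs to either pig gene, which gave 2 genes of 2389 named on the array and 7 probes of 43603. ACP5 had 4 probes, A_72_P053186, A_72_P764549, A_72_P444003 and A_72_P755871, in order of falling mean over the 21 arrays. RBP4 had 3, A_72_P667921, A_72_P146486 and A_72_P531116, in the same order. The probe with the highest mean stands for its gene where 1 probe is needed, and is called the brightest.

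The pig placenta does not invade the uterine wall, so the conceptus lives for weeks on what the uterine glands secrete, a mixture called histotroph. Uteroferrin is a purple-coloured glycoprotein of that secretion. In pigs its production depends on progesterone, and it carries iron toward the conceptus. RBP4 is a lipocalin that binds retinol, and retinol-binding proteins are also secreted by the pig uterus and by the pig conceptus. In the circulation RBP4 travels bound to transthyretin (TTR), and inside cells retinoic acid is held by CRABP1 and CRABP2. ACP5 is also the tartrate-resistant acid phosphatase of osteoclasts and of some macrophages.

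The study addressed which endometrial genes differ during implantation, on 21 one-colour arrays in 7 groups of 3. Pregnant sows, inseminated at 12 h and again at 24 h from the detection of heat, gave endometrium of attachment sites and of the tissue between them (inter-site) on days 13, 18 and 24, with 9 pregnant sows in all, 3 per day. The non-pregnant sows received inactivated sperm of the same boar and were killed on day 13, so days 18 and 24 had no non-pregnant counterpart. All were Large White, with no age given in the labels, and the labels do not say which attachment and inter-site arrays share a sow, so p-values below treat them as separate samples and measure only the spread between these arrays.

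Levels are log2 ratios of a probe's processed signal to its array's 75th percentile of signal. A level of 1 is thus a signal 2 times that percentile. Between 62.3% and 77.1% of probes per array were well above background. All 7 probes of both genes were well above background on all 21 arrays, and 30089 probes passed that filter in at least 1 group and were tested.

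Over all tested probes 3 libraries stood apart from their groups. They were non-pregnant replicate 3, day 24 inter-site replicate 3 and day 13 inter-site replicate 1. The non-pregnant and the day 24 library correlated at 0.988 with each other, and the day 13 library at 0.970 with the day 24 one, whereas each correlated at 0.934 to 0.947 with its own group. Each of the other 18 libraries correlated at 0.951 or more with its closest match among those 18 in its own group. DKK1, a secreted Wnt inhibitor, had a level of -3.24 in the day 13 and -6.13 in the day 24 library, against -5.37 to -4.63 in the non-pregnant group and 3.54 to 5.67 on all other pregnant arrays. On this gene the 2 pregnant libraries thus lay near the non-pregnant group. Results that rest on these 3 libraries are given with and without them, and leaving them out was chosen after the data were seen.

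RBP4 averaged 7.59 times (brightest probe) to 16.8 times higher at day 13 attachment sites than in non-pregnant endometrium. Arrays of these groups did not overlap, as was so for 31.1% of all probes. No RBP4 probe passed the adjusted threshold on all 21 arrays. Without the 3 libraries all 3 RBP4 probes rose at day 13, at attachment sites and at inter-sites, by 5.33 to 12.2 times. They were called at both, as were 5.92% of all probes at attachment sites and 3.33% at inter-sites. The inter-site call was lost when slide was added as a block. No ACP5 probe passed against non-pregnant endometrium, with or without those libraries. Its 3 dimmer probes were highest at day 24 attachment sites, at every one of which they exceeded all day 18 and day 13 attachment sites, while its brightest probe stayed within a narrow range there. Of all probes 28.3% did not overlap between days 24 and 18 in either direction, and 44.5% between days 24 and 13.

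The effect of pregnancy was addressed on day 13, first for RBP4, the retinol carrier. The brightest RBP4 probe read 8.43, 8.28 and 8.28 at day 13 attachment sites, against 5.43, 6.40 and 4.39 in non-pregnant endometrium. At day 13 inter-sites it read 1.97, 8.66 and 8.24, where 1.97 belongs to the library that stood apart. The attachment arrays lay close together and above every non-pregnant array, whereas the inter-site arrays spanned both. Probe A_72_P146486 read 7.77, 6.95 and 7.16 at day 13 attachment sites and 0.48, 7.45 and 7.02 at inter-sites, against 3.36, 4.41 and 2.30 in non-pregnant endometrium. Probe A_72_P531116 read 6.63, 6.0 and 6.02 at attachment sites and -1.46, 6.33 and 5.97 at inter-sites, against 2.10, 3.13 and 1.22 in non-pregnant endometrium. The 3 probes thus placed the arrays alike, the lowest being the same inter-site library each time.

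**Figure D1:**
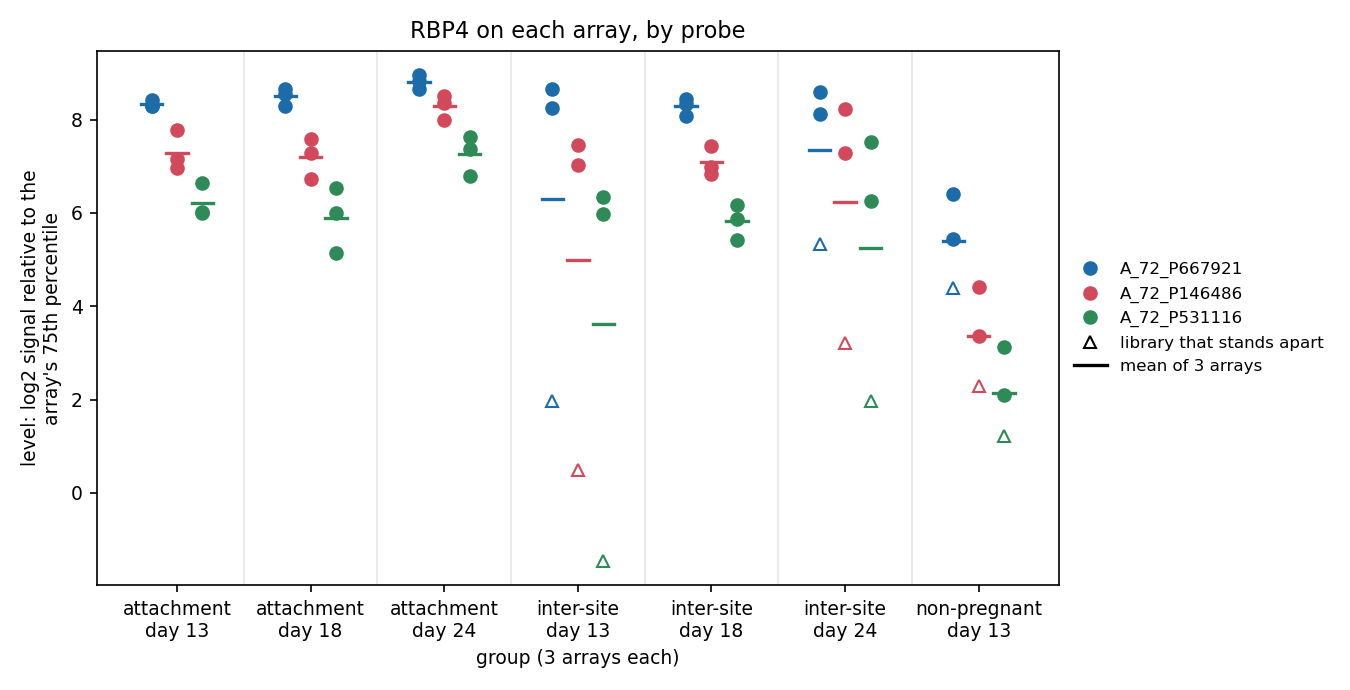
RBP4 level (log2 ratio of processed signal to the array's 75th percentile) on each of the 21 arrays, by group, with a colour for each of the 3 probes. Points are arrays, bars are means of 3 arrays, and open triangles mark the 3 libraries that stood apart; the day 13 attachment arrays of all 3 probes lie above every non-pregnant array.

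The differences between attachment sites and non-pregnant endometrium on day 13 were 2.92 ± 1.21 (log2 difference ± SE, n = 3 each), 3.94 ± 1.39 and 4.07 ± 1.54 for A_72_P667921, A_72_P146486 and A_72_P531116. These are folds of 7.59, 15.3 and 16.8. The adjusted p-values by limma with Benjamini-Hochberg adjustment over all tested probes were 0.19, 0.133 and 0.156, so none passed 0.05. None of the 7 probes of both genes was called in this comparison, against 1.79% of all tested probes. All 3 RBP4 probes had an unadjusted p under 0.05, as had 20.3% of all probes, and all 3 did not overlap between the groups, as was so for 31.1% of all probes. An exact two-sided permutation test of each RBP4 probe gave 0.10, the smallest p that 3 arrays against 3 allow.

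Leaving out the 3 libraries removed most of the spread. RBP4 then differed by 2.41 ± 0.27, 3.40 ± 0.39 and 3.61 ± 0.47 (log2 difference ± SE, 3 attachment against 2 non-pregnant arrays), which are folds of 5.33, 10.6 and 12.2. The adjusted p-values by limma were 0.000458, 0.000496 and 0.00101, and 5.92% of all probes were called in that comparison. At inter-sites (2 against 2 arrays) the differences were 2.53, 3.35 and 3.54, or folds of 5.79, 10.2 and 11.6, with adjusted p-values by limma of 0.00105, 0.00184 and 0.00314 and 3.33% of all probes called. The 2 remaining non-pregnant arrays matched each other at 88.57% of the 70 probes that are on in some libraries and off in others. Arrays labelled as different replicates of a pregnant group matched at up to 94.29%, and whether such a match marks a shared sow was not tested. With slide as a fixed block as well, RBP4 kept its call at attachment sites (adjusted p 0.022 to 0.0303 by limma, with 1.57% of all probes called) and lost it at inter-sites (0.153 to 0.189, with 0.0465% called).

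On all 21 arrays RBP4 at inter-sites differed from non-pregnant endometrium by 0.89 to 1.63, with adjusted p-values of 0.567 to 0.746 by limma. None of the 7 probes was called there, against 0.449% of all probes, and none had an unadjusted p under 0.05, as had 17.6% of all probes. Leaving out only day 13 inter-site replicate 1 gave 3.04 for the brightest RBP4 probe, with an adjusted p of 0.0342 by limma. The share of all probes called in that fit is not given here. Within a slide that held both groups, day 13 attachment minus non-pregnant was 2.02, 3.35 and 3.5 for the 3 RBP4 probes on 1 slide, and 3.9 to 4.87 on the other, whose non-pregnant array was the one that stood apart. The inter-site minus non-pregnant difference ran both ways within slides, 4.27 to 5.15 on the slide of that same non-pregnant array, and -3.56 to -2.88 on the slide of the inter-site library that stood apart. The sign of the inter-site difference thus followed which of those libraries a slide held.

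In bulk tissue, fewer cells of a type and less RNA per cell cannot be told apart, and this holds for every difference of ACP5 and RBP4 given here. The difference between day 13 attachment sites and non-pregnant endometrium was positive for 7 of 7 tested epithelial markers, with a median of 0.64 and none called. Of 4 tested smooth muscle markers none was higher, their summed signal (in units of the 75th percentile) being 37.2 to 633.9 at day 13 attachment sites and 35.5 to 1326 in non-pregnant endometrium. The part of either in the RBP4 difference was not tested. None of 9 ciliated cell markers was named on the array, and no uterine gland marker was tested.

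For ACP5 no probe passed the threshold between pregnant and non-pregnant endometrium on day 13. Its brightest probe read 8.95, 9.11 and 9.06 at attachment sites and 6.03, 9.31 and 9.17 at inter-sites, against 9.11, 9.38 and 6.04 in non-pregnant endometrium. Probe A_72_P444003 read 4.78, 4.69 and 4.84 at attachment sites and -0.64, 4.98 and 4.32 at inter-sites, against 3.51, 4.48 and -0.22 in non-pregnant endometrium. The low readings of both probes were those of the libraries that stood apart. The attachment minus non-pregnant differences of the 4 probes were 0.86 to 2.18, with adjusted p-values of 0.443 to 0.623 by limma. Of the 4 probes only A_72_P444003 did not overlap between the groups, as was so for 31.1% of all probes. On the other 18 arrays the differences of the 4 probes were -0.20 to 0.78 (adjusted p 0.395 to 0.659), the brightest probe being the negative one. Inter-site minus non-pregnant was -0.005 to 0.30 on all arrays.

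The 95% interval of the brightest ACP5 probe's attachment minus non-pregnant difference ran from -0.98 to 2.70, and that of the brightest RBP4 probe from 0.36 to 5.49. These intervals overlap. A difference between both genes' responses was not tested.

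**Figure D2:**
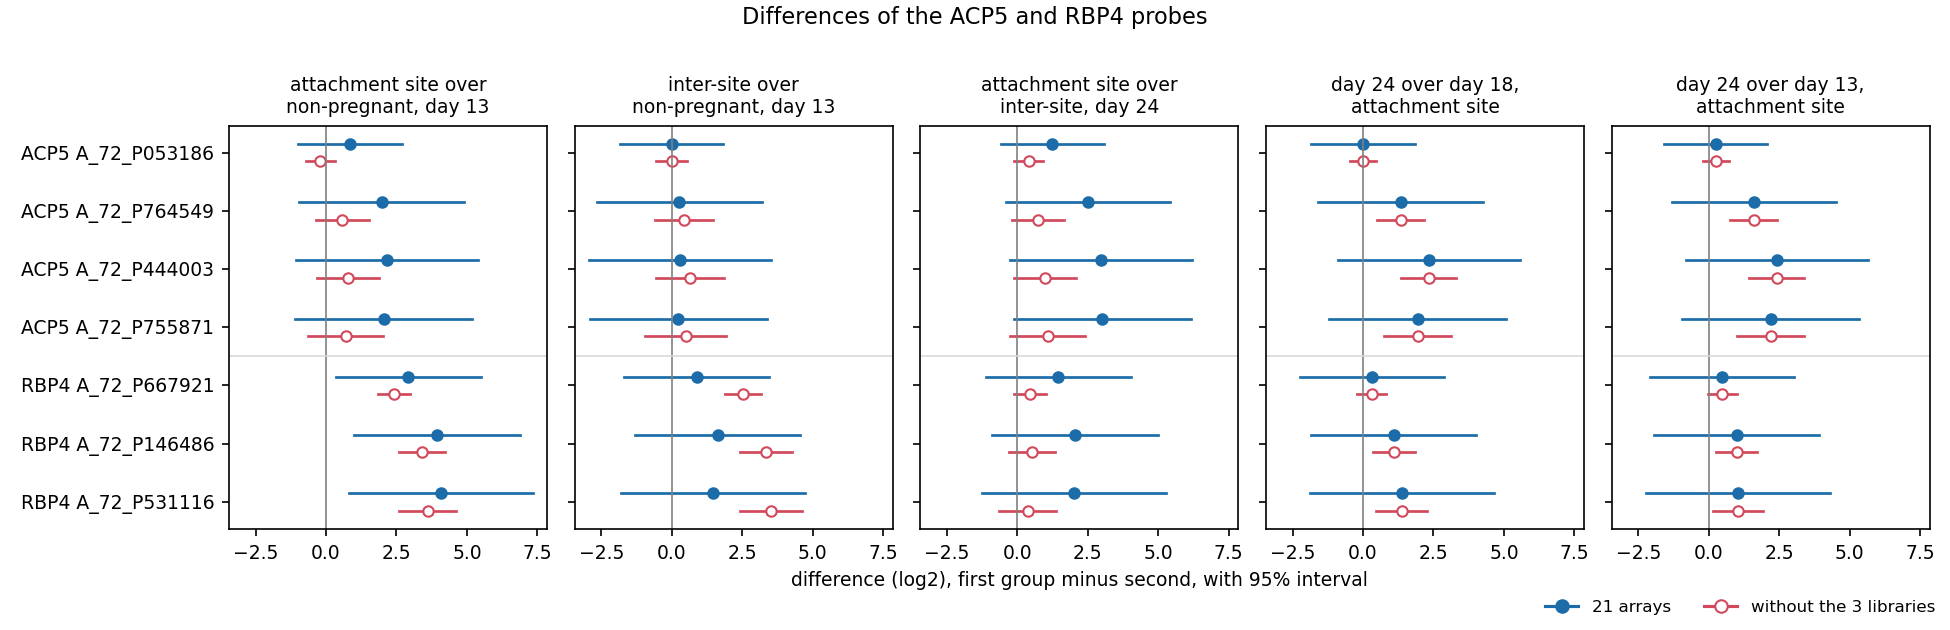
Log2 differences of the 7 probes in 5 comparisons (attachment over non-pregnant and inter-site over non-pregnant on day 13, attachment over inter-site on day 24, and day 24 over day 18 and over day 13 at attachment sites), with 95% intervals. Filled blue points use 21 arrays and open red points leave out the 3 libraries that stood apart; RBP4 differences from non-pregnant endometrium have much shorter intervals without them.

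Over the days of pregnancy at attachment sites, the ACP5 probe A_72_P764549 read 7.32, 6.99 and 7.18 on day 13, 7.46, 7.22 and 7.63 on day 18, and 9.0, 8.67 and 8.64 on day 24. Probe A_72_P444003 read 4.78, 4.69 and 4.84 on day 13, 4.75, 4.61 and 5.21 on day 18, and 7.78, 6.90 and 6.87 on day 24. Every day 24 array of these probes was above every earlier attachment array, and days 13 and 18 overlapped. Probe A_72_P755871 behaved likewise, with 7.58, 6.32 and 6.30 on day 24 and at most 4.95 on the earlier days. The brightest probe differed, with 8.95, 9.11 and 9.06 on day 13, 9.35, 9.47 and 9.03 on day 18 and 9.15, 9.42 and 9.27 on day 24.

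**Figure D3:**
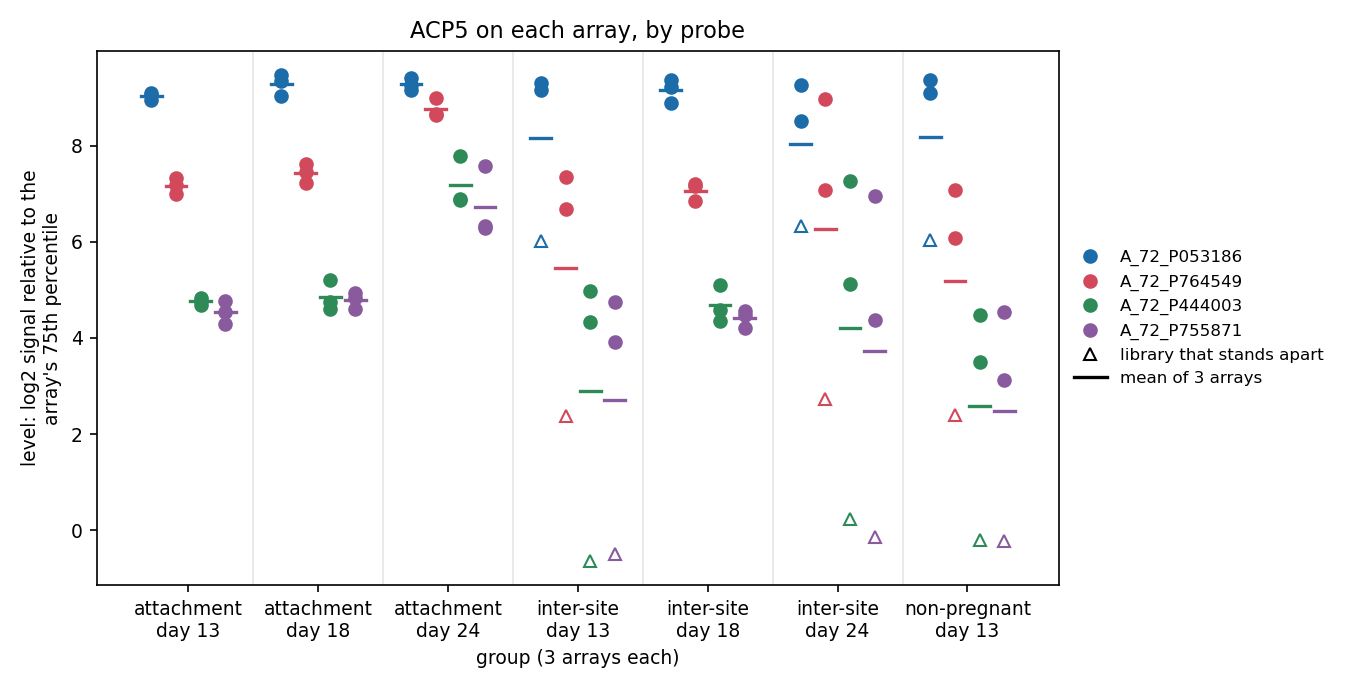
ACP5 level (log2 ratio of processed signal to the array's 75th percentile) on each of the 21 arrays, by group, with a colour for each of the 4 probes. Points are arrays, bars are means of 3 arrays and open triangles mark the 3 libraries that stood apart; the 3 dimmer probes are highest at day 24 attachment sites, where the brightest probe reads 9.15 to 9.42.

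At attachment sites, day 24 minus day 18 was -0.004, 1.33, 2.32 and 1.94 for the 4 ACP5 probes from brightest to dimmest. The adjusted p-values by limma were 0.377 to 0.998, so no ACP5 probe was called, against 5.64% of all probes, and none had an unadjusted p under 0.05, as had 23.3% of all probes. Of the 4 probes 3 did not overlap between the days, as was so for 28.3% of all probes. Without the 3 libraries, which all lie in other groups and enter only through the shared estimate of the spread, the 3 dimmer probes passed the threshold. Their differences were 1.33 ± 0.39, 2.32 ± 0.46 and 1.94 ± 0.55 (log2 difference ± SE, n = 3 each), with adjusted p-values by limma of 0.0475, 0.00932 and 0.0430, and 8.9% of all probes were called. The brightest probe had -0.004 and an adjusted p of 0.994 in that fit. With the slide as a block as well, none of the 3 passed (0.0779 to 0.203), and 1.49% of all probes were called.

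Day 24 minus day 13 at attachment sites was 0.24, 1.61, 2.41 and 2.20 for the 4 ACP5 probes. None was called on all 21 arrays, against 15.7% of all probes, and none had an unadjusted p under 0.05, against 30.5%. All 4 did not overlap, as was so for 44.5% of all probes. Without the 3 libraries the 3 dimmer probes passed, with adjusted p-values by limma of 0.0117, 0.00316 and 0.0138, against 19.3% of all probes called. They also passed with the slide as a block beside that (0.0142 to 0.0338), with 11.7% of all probes called. The brightest probe did not, with an adjusted p of 0.465 without the 3 libraries. Day 18 minus day 13 was 0.09 to 0.27 for the 4 probes, with none called against 1.79% of all probes and none at an unadjusted p under 0.05 against 21.3%, and none of the ACP5 probes passed in any fit run on that comparison.

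For RBP4 over these days the brightest probe read 8.43, 8.28 and 8.28 on day 13, 8.66, 8.30 and 8.55 on day 18, and 8.65, 8.95 and 8.83 on day 24 at attachment sites. Probe A_72_P146486 read 7.77, 6.95 and 7.16 on day 13, 7.29, 6.73 and 7.58 on day 18, and 7.99, 8.35 and 8.50 on day 24. Day 24 was above day 18 without overlap for the 2 dimmer probes of 3, and above day 13 for all 3, as was so in either direction for 28.3% and 44.5% of all probes. The differences were 0.31, 1.09 and 1.37 for day 24 minus day 18 and 0.48, 0.99 and 1.04 for day 24 minus day 13, none called with all arrays, against 5.64% and 15.7% of all probes. With only the groups compared in the fit, A_72_P146486 and A_72_P531116 passed for day 24 over day 13 (adjusted p 0.0381 and 0.0426 by limma) and the brightest did not (0.0735). The share of all probes called in that fit is not given here. On the other 18 arrays the adjusted p-values by limma were 0.0568 to 0.439 and 0.0601 to 0.182. Day 18 minus day 13 was -0.33 to 0.17.

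Markers of the conceptus moved with day 24 at attachment sites. Of 15 tested conceptus and trophoblast markers 5 were called higher on day 24 than on day 18 and 8 higher than on day 13, with medians of 2.17 and 2.45, against 9.02% and 19.9% of named genes called in either direction. Their summed signal was 23 to 36.3 on day 13, 43.4 to 463.5 on day 18 and 389.9 to 700.3 on day 24 at attachment sites, 24.3 to 89.9 at day 24 inter-sites and 22.0 to 24.6 in non-pregnant endometrium. CYP19A3, an aromatase of the pig conceptus, was well above background on 3 of 3 day 24 attachment arrays and on 0 of 3 day 18 or day 13 attachment arrays. Among inter-site arrays the conceptus marker list stood highest in day 24 replicate 2, with a median deviation of 0.57 from each gene's mean over the arrays, and that array also had the highest inter-site levels of the dimmer ACP5 probes. Of 9 macrophage and osteoclast markers 1 was called higher and 1 lower on day 24 than on day 18 (9.02% of named genes), with summed signals of 36.4 to 44.5 on day 24 and 38.5 to 71.8 on day 18. The part of either list in the ACP5 values was not tested.

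At inter-sites the day series was wide. ACP5 probe A_72_P444003 read -0.64, 4.98 and 4.32 on day 13, 4.58, 5.11 and 4.36 on day 18, and 5.13, 7.26 and 0.23 on day 24. The brightest RBP4 probe read 1.97, 8.66 and 8.24 on day 13, 8.43, 8.33 and 8.08 on day 18, and 8.13, 8.60 and 5.33 on day 24. The lowest reading on days 13 and 24 was that of a library that stood apart. Day 18 minus day 13 was 0.98 to 1.79 for ACP5 and 1.99 to 2.20 for RBP4, with no member called against 0.00665% of all probes. Day 24 minus day 18 was -1.12 to -0.48 for ACP5 and -0.93 to -0.57 for RBP4 (0.143% of all probes called), and day 24 minus day 13 was -0.13 to 1.32 and 1.06 to 1.64 (0.246%). No probe of either gene had an unadjusted p under 0.05 in these comparisons, as had 5.5%, 14.1% and 13.9% of all probes. On the other 18 arrays day 18 minus day 13 was -0.088 for the brightest ACP5 probe and -0.17 for the brightest RBP4 probe, and RBP4 day 24 minus day 13 was -0.089. The ACP5 day 24 minus day 18 values were then -0.27 to 1.51, with adjusted p-values of 0.214 to 0.685 by limma.

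The site difference within a day was called for no member. On day 24 the brightest ACP5 probe read 9.15, 9.42 and 9.27 at attachment sites, against 8.51, 9.26 and 6.34 at inter-sites. Probe A_72_P444003 read 7.78, 6.90 and 6.87 at attachment sites, against 5.13, 7.26 and 0.23 at inter-sites. One inter-site array lay among the attachment arrays, 1 lay below them, and the library that stood apart lay far lower. The differences were 1.25 to 3.01 for ACP5 and 1.46 to 2.04 for RBP4, with adjusted p-values of 0.658 to 0.835 by limma and 0.279% of all probes called. None of the 7 had an unadjusted p under 0.05, as had 8.01% of all probes. Of the 7 probes 1, of RBP4, did not overlap, as was so for 13.7% of all probes. With those 3 libraries left out these were 0.40 to 1.07 for ACP5 (adjusted p 0.853 to 0.898) and 0.36 to 0.52 for RBP4.

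On day 18, where no library stood apart, attachment minus inter-site was 0.13 to 0.38 for ACP5 and 0.07 to 0.22 for RBP4. The 95% interval of the brightest probe ran from -1.71 to 1.97 for ACP5 and from -2.34 to 2.78 for RBP4. Of the 4 ACP5 probes 2 did not overlap, as was so for 6.99% of all probes. None of the 7 was called or had an unadjusted p under 0.05, against 0% and 4.69% of all probes. On day 13 the differences were 0.87 to 1.88 for ACP5 and 2.04 to 2.60 for RBP4, with none of the 7 called against 0% of all probes, and none at an unadjusted p under 0.05 against 8.13%. With day 13 inter-site replicate 1 left out, the brightest probes gave -0.20 for ACP5 and -0.12 for RBP4. The change of the site difference between days was tested as an interaction, and no probe of either gene passed, against 0%, 0.00997% and 0.0199% of all probes for day 13 to 18, 18 to 24 and 13 to 24. None had an unadjusted p under 0.05 either, as had 7.93%, 3.21% and 4.85% of all probes. For the brightest probes it was -0.74 (ACP5) and -1.82 (RBP4) from day 13 to day 18, 1.11 and 1.24 from day 18 to day 24, and 0.38 and -0.58 from day 13 to day 24.

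Ordered by group mean, the brightest RBP4 probe was lowest in non-pregnant endometrium (5.41 ± 1.01, SD, n = 3), then at day 13 inter-sites (6.29 ± 3.75), day 24 inter-sites (7.35 ± 1.77), day 18 inter-sites (8.28 ± 0.18), day 13 attachment sites (8.33 ± 0.083), day 18 attachment sites (8.50 ± 0.19) and day 24 attachment sites (8.81 ± 0.15). All neighbours in that order overlapped. For A_72_P146486 and A_72_P531116 the non-pregnant group was also lowest and day 24 attachment highest, and only that highest group did not overlap its neighbour, day 13 attachment. For the brightest ACP5 probe the order ran from 8.04 ± 1.52 at day 24 inter-sites through 8.18 ± 1.85 in non-pregnant endometrium to 9.29 ± 0.23 at day 18 attachment sites, with all neighbours overlapping. For the other 3 ACP5 probes non-pregnant endometrium was lowest, at 5.19 ± 2.46, 2.59 and 2.48, and day 24 attachment highest, at 8.77 ± 0.20, 7.18 ± 0.52 and 6.73 ± 0.73. Only that highest group stood clear of its neighbour.

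The spread between replicates was large for both genes and came mostly from 3 libraries. The SD within groups was 1.15 to 2.06 for the 7 probes, above that of 95.6% to 99.4% of tested probes. With them left out it was above that of 16.7% to 87.7%. On the 16 other pregnant arrays the brightest RBP4 probe spanned 8.08 to 8.95 and the brightest ACP5 probe 8.51 to 9.47.

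The ACP5 probes did not measure alike. Over 21 arrays the brightest correlated at 0.925, 0.876 and 0.883 with the other 3, but over the 18 arrays without the 3 libraries at 0.276, 0.178 and 0.254. The other 3 correlated among themselves at 0.99 to 0.994 over 21 arrays and 0.977 to 0.988 over 18. All 4 carry the same RefSeq accession, and their arrays share labelling and scan. On the 18 arrays without the 3 libraries the processed signal of the brightest spanned only 212360 to 312931. That is at most 51.7% of the scanner's saturation value, and no spot was saturated, which speaks only to the scanner's limit. Why the brightest probe differs was not tested. The 3 RBP4 probes correlated at 0.971 to 0.996 over 21 arrays and 0.908 to 0.991 over 18.

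**Figure D4:**
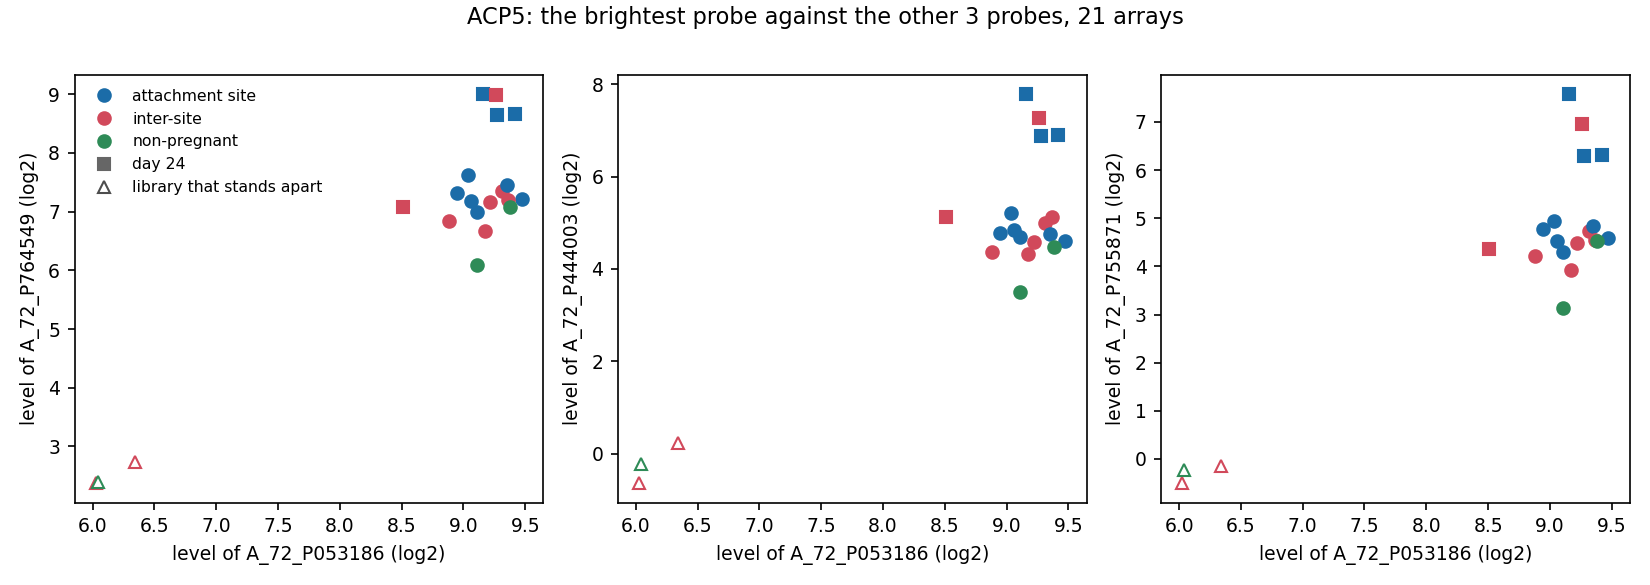
Level of the brightest ACP5 probe (x axis) against the other 3 ACP5 probes (y axis) on the 21 arrays, as log2 ratio of processed signal to the array's 75th percentile, with squares for day 24. The 3 libraries that stood apart lie at the low end of both axes, and without them the correlations are 0.178 to 0.276.

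The brightest probes of ACP5 and RBP4 correlated with each other at 0.846 over 21 arrays and 0.079 over 18. Of 2017 other named genes, those most like ACP5 over 21 arrays, by Pearson r of the brightest probes, were GPX3 (0.924), UABP-2 (0.917), PTN (0.891), TMCO1 (0.887) and MT1A (0.878). UABP-2, a uteroferrin-associated basic protein of pig uterine secretion, spanned 8.78 to 8.89 at day 24 attachment sites. On day 13 it spanned 5.59 to 7.38 at attachment sites and -1.16 to 8.26 in non-pregnant endometrium, and these overlapped. Those most like RBP4 were SULT2A1 (0.931), BTG2 (0.922), SQLE (0.912), CTH (0.903) and SOD3 (0.903). SULT2A1, a sulphotransferase of steroids, spanned 5.55 to 6.81 at day 13 attachment sites and 0.92 to 4.43 in non-pregnant endometrium.

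Over 18 arrays other genes led both lists. For the brightest ACP5 probe they were ITGB3 (0.944), CYP24A1 (0.942), CASP10 (0.940), MUT (0.888) and MUC13 (0.880). ITGB3, an integrin subunit, was itself narrow, with group means of 9.43 to 9.82. The other genes of that list were narrow too. Their group means were 9.70 to 10.10 (CYP24A1), 8.31 to 8.57 (CASP10), 8.88 to 9.25 (MUT) and 9.88 to 10.30 (MUC13). Whether the correlations of these genes with ACP5 come from the scaling of each array was not tested. For RBP4 the leading genes were DKK1 (0.908), ANPEP (0.855), LPL (0.841), ADAMTS1 (0.840) and VPREB1 (0.834). Among the 18 arrays, non-pregnant replicates 1 and 2 read 5.43 and 6.40 for RBP4, against 8.08 to 8.95 on the 16 pregnant arrays. For DKK1 they read -4.63 and -5.37, against 3.54 to 5.67. How far the RBP4 correlations rest on that contrast was not tested. With ACP5 probe A_72_P764549 instead, APCS (0.895), STAR (0.889) and GATA3 (0.885) led, and GATA3 is on the conceptus marker list.

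Partners of RBP4 in retinol transport were only partly on the array. STRA6, LRAT, ALDH1A1, ALDH1A2, RARA and RXRA were not named there. TTR read -0.91, -2.54 and -2.32 at day 13 attachment sites, against -5.34, -7.03 and -7.87 in non-pregnant endometrium, where 1 of 3 arrays was well above background. These arrays did not overlap, as was so for 31.1% of all probes, and the adjusted p by limma was 0.0695. TTR is also on the conceptus marker list, which had 0 of 15 called in this comparison, against 2.58% of named genes. The part of the conceptus in the TTR difference was not tested. CRABP1, which holds retinoic acid in the cytoplasm, read -0.80, -1.09 and -0.75 at day 13 attachment sites, against 1.96, 2.46 and 4.31 in non-pregnant endometrium. The arrays did not overlap, as was so for 31.1% of all probes, and the difference of -3.79 had an adjusted p of 0.0940 by limma. The 3 libraries that stood apart read 4.31, 4.22 and 3.53, and without them the difference was -3.09 (adjusted p 0.0649). CRABP2 was well above background on 3 arrays only, the 3 libraries that stood apart.

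**Figure D5:**
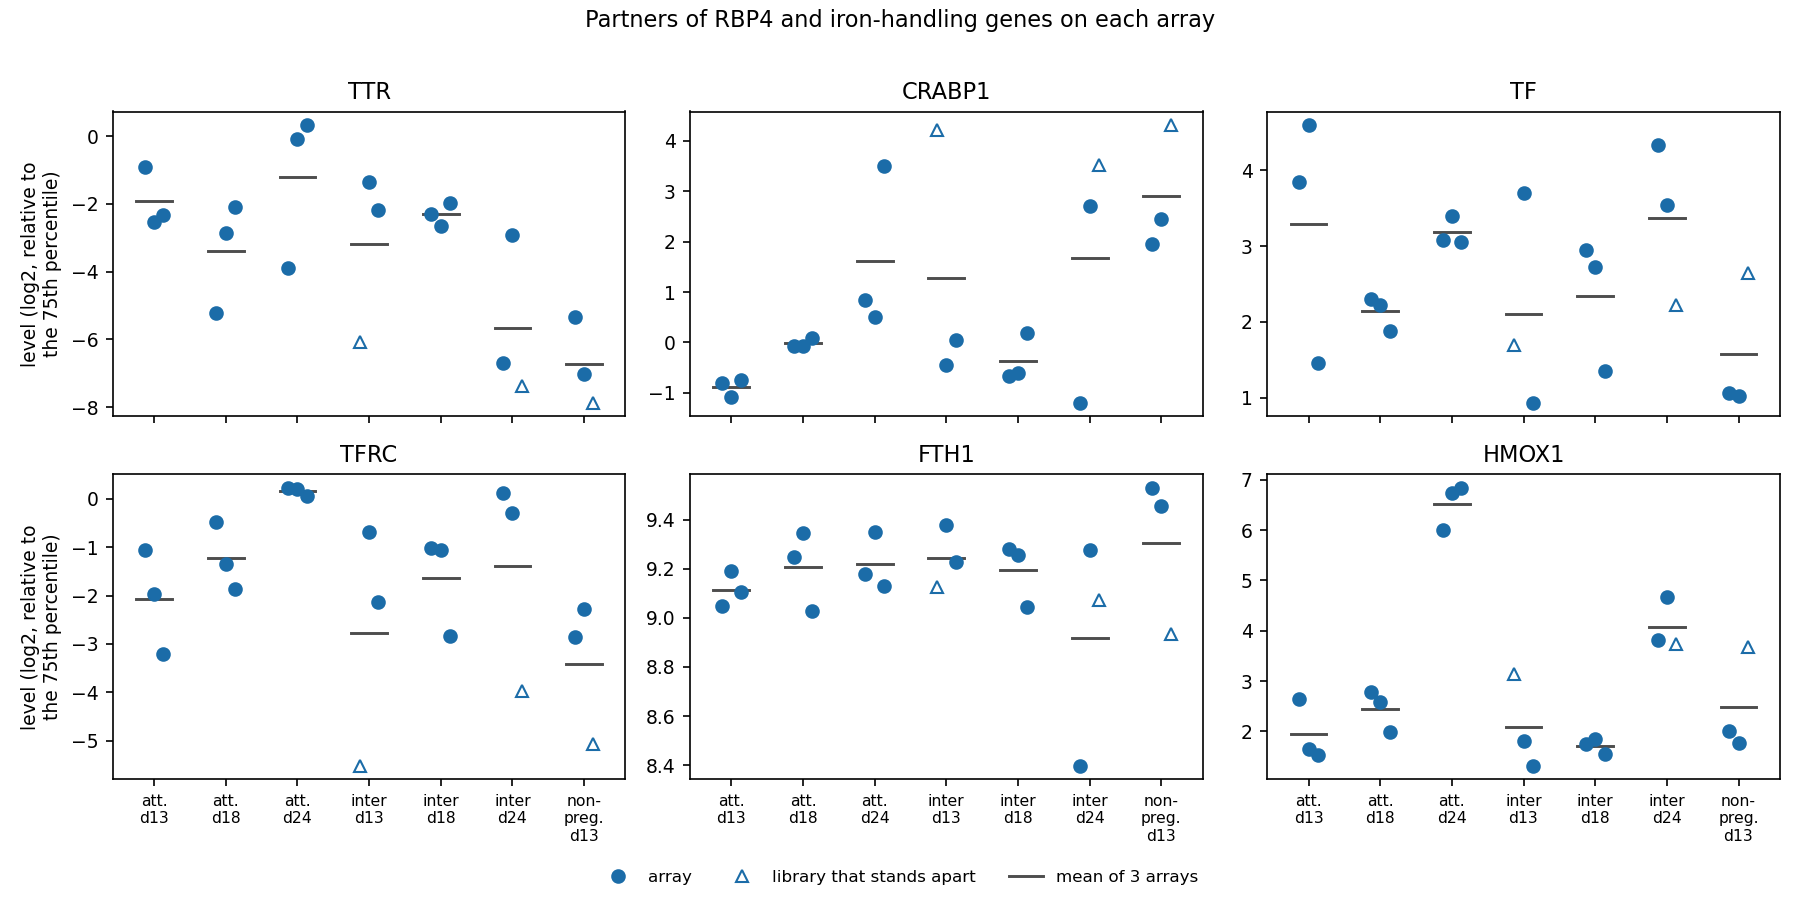
Levels (log2 ratio of processed signal to the array's 75th percentile) of TTR, CRABP1, TF, TFRC, FTH1 and HMOX1 on each of the 21 arrays by group, with open triangles for the 3 libraries that stood apart. HMOX1 reads 5.99 to 6.83 at day 24 attachment sites, above every other array.

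Of 12 tested genes of retinoid transport and metabolism, 1 was called higher and 0 lower at day 13 attachment sites than in non-pregnant endometrium, with a median difference of 0.32. Over all 2018 tested named genes 2.58% were called and the median was -0.10. The 1 called was LPL, the lipoprotein lipase, at 3.18 and an adjusted p of 0.0322 by limma. On the other 18 arrays it was 2 of 12, LPL at 3.95 and CD36 at 1.27, and 5.92% of all probes were called in that fit. At inter-sites none of the 12 was called with all arrays, against 0.743% of named genes. Without the 3 libraries LPL was called there, at 3.9, with 3.33% of all probes called. On day 24 against day 13 at attachment sites RBP7 rose by 2.66 (adjusted p 0.0161) and RXRB fell by 0.78 (0.0154), by limma, 2 of 12 called against 19.9% of named genes.

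PGR, the progesterone receptor, fell in both kinds of pregnant endometrium. It read 1.14, 1.15 and 1.24 at day 13 attachment sites and 2.15, 1.16 and 1.20 at inter-sites, against 3.43, 3.01 and 3.37 in non-pregnant endometrium. Attachment minus non-pregnant was -2.09 (adjusted p 0.0166 by limma) and inter-site minus non-pregnant was -1.77 (0.0425). It was the 1 of 15 tested steroid receptor genes called in either comparison, against 2.58% and 0.743% of named genes. Its highest inter-site reading on day 13 was again that of the library that stood apart.

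Beside ACP5, partners in iron handling gave HMOX1, the inducible haem oxygenase, as the clearest change. HMOX1 read 2.65, 1.66 and 1.53 on day 13, 2.78, 2.58 and 1.99 on day 18, and 5.99, 6.73 and 6.83 on day 24 at attachment sites. Day 24 minus day 18 was 4.07 (adjusted p 0.00054) and day 24 minus day 13 was 4.57 (0.000119), by limma. It read 3.81, 4.67 and 3.74 at day 24 inter-sites, below all attachment arrays, with a site difference of 2.45 and an adjusted p of 0.0550. On the other 18 arrays that difference was 2.28 (0.0381).

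TFRC, the receptor that takes up transferrin-bound iron, read 0.22, 0.19 and 0.05 at day 24 attachment sites, against -1.05, -1.98 and -3.20 on day 13. The difference of 2.23 had an adjusted p of 0.199 by limma with all arrays and 0.0171 without the 3 libraries. Transferrin itself (TF) read 3.84, 4.59 and 1.45 at day 13 attachment sites, against 1.07, 1.02 and 2.65 in non-pregnant endometrium, and overlapped. FTH1, the heavy chain of ferritin, read between 8.40 and 9.53 on all 21 arrays. Of the 13 tested genes of iron transport and storage none was called in either comparison with non-pregnant endometrium. On day 24 at attachment sites 1 of 13 was called against day 18 and 2 of 13 against day 13, the other being HAMP, the iron hormone hepcidin, at 0.80 (adjusted p 0.0422). Of all named genes 9.02% and 19.9% were called there.

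ACP5 is a lysosomal-type acid phosphatase. Beside it 16 other genes were tested from a list of lysosomal hydrolases, which also holds the lysosomal membrane protein LAMP1. Of the 16, 8 were called higher and 0 lower than on day 18 at attachment sites, against 9.02% of named genes called, with a median of 1.08 against 0.17 over all named genes and 13 of 16 positive. Beta-glucuronidase GUSB rose by 1.90 (adjusted p 0.0338), HEXA by 1.75 (0.000353) and sialidase NEU1 by 1.71 (0.0146), by limma. Against day 13, 7 were called higher and 0 lower, against 19.9% of named genes called, with a median of 1.01 against 0.19. In these day comparisons 5 and 8 of 15 conceptus markers were called higher too, as given above, and their part in the lysosomal genes and in HMOX1 was not tested. None of the 16 was called in the comparisons with non-pregnant endometrium. The count against day 18 was 9 of 16 without the 3 libraries, where 8.9% of all probes were called. Without the filter on dim probes it was 4. The list's probes were then picked anew from the unfiltered set, and the share of all probes called in that fit is not given here. ACP1, ACP2 and ACP6 were not named on the array.

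A list for the uterine secretion, to which both uteroferrin and retinol carriers belong, had 30 tested genes, among them the cellular enzyme HSD11B1. Of these 30, 2 were called at day 13 attachment sites against non-pregnant endometrium, where 2.58% of named genes were called. EGF rose by 2.43 (adjusted p 0.0417) and SLPI, a secreted protease inhibitor, fell by 3.91 (0.0460), by limma. SPP1, the adhesive glycoprotein osteopontin, read 1.88, 1.25 and -0.61 on day 13, 6.58, 5.78 and 5.32 on day 18, and 7.38, 8.08 and 8.33 on day 24 at attachment sites. Day 18 minus day 13 was 5.05 (adjusted p 0.00974) and day 24 minus day 13 was 7.09 (6.81e-05). On day 24 against day 13, 10 of the 30 were called higher and 2 lower, IGF1 at -3.08 and EGF at -2.65, against 19.9% of named genes. CTSB, CTSH and CTSV are on this list and on that of lysosomal hydrolases. Of 9 tested lipocalins and related carriers, the fatty acid binding protein FABP3 rose by 2.70 on day 24 against day 18, and none was called against non-pregnant endometrium. On day 18 against day 13 at attachment sites the 2 called of the 30 were SPP1 and SLPI, SLPI rising by 4.1 (adjusted p 0.0397), against 2.97% of named genes.

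The site comparisons called none of these genes on all 21 arrays. Of the genes of retinoid and iron handling, lysosomal hydrolases, uterine secretion, lipocalins and steroid receptors none was called between attachment sites and inter-sites on days 13, 18 or 24, against 0%, 0% and 0.694% of named genes. Within inter-sites, none was called on day 18 against day 13 or on day 24 against day 18, against 0.0496% and 0.149% of named genes. SPP1 was the 1 called on day 24 against day 13, at 5.28 (adjusted p 0.0129 by limma), against 0.595%.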

How the data were processed

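RNA of 21 endometrium samples was labelled with Cy3 and hybridised to 1 Agilent porcine array each. The authors extracted intensities with Agilent Feature Extraction 10.7.3.1 per the file headers (10.7 per the submitters' processing notes). The deposited intensity used was the processed signal, background-subtracted per the file headers, together with the deposited flags for signal well above background. The authors' deposited value table, in log2 with its normalization not given in the sources used here, served as an alternative.

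Here, log2 of the processed signal minus each array's 75th percentile was fitted with limma 3.58.1 in R 4.3.3, as 7 group means over 21 arrays (14 residual degrees of freedom), with Benjamini-Hochberg adjustment within each of 11 comparisons and 3 interaction contrasts at 0.05. A probe entered the test where 1 or more groups had it flagged above background on each of their 3 arrays (30089 tested, 13514 not), and 120 outlier-flagged values were left missing. The normexp alternative (offset 50) used median signals, since no mean signal column was present. Of 5779 probes with a RefSeq accession 5461 matched 1 symbol of 2389 genes, 318 did not, and 38142 probes in all have no symbol. The number of arrays limits the precision. The fit was tested on simulated data.

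For each gene the 5 named genes with the highest Pearson r were named. Members of gene lists past the threshold were named, at most 4 per direction in each comparison, along with set partners. CD36, and the genes most like ACP5 and RBP4 over 18 arrays or by a second probe, were named after their values were seen. Values of some genes the rule names are not reported here. The members and lists were chosen with earlier results of these data known.

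The labels do not say that replicate numbers pair arrays, and the fit has no replicate block. Arrays lay on 6 slides, and slide was tried as a block.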

Additional observations from a re-analysis of the deposited data

How the results depend on the processing

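Values are log2 differences of the brightest probe of each gene unless another probe is named, and the cause of each change of sign was not tested beyond what a setting's name says. RBP4 stayed higher at day 13 attachment sites than in non-pregnant endometrium in every setting run, and it passed the threshold with only the groups compared (2.92, adjusted p 0.0339 by limma, with 4.29% of all probes called) and in the fits below that leave out 2 or 3 of the libraries that stood apart, but in none of the 6 that leave out 1 replicate (0.240 to 0.343). With slide as a fixed block on 21 arrays its 3 probes had 2.59 to 3.95 (adjusted p 0.241 to 0.321), and with libraries that match at on-off probes as a random block 1.91 to 2.71 (0.543 to 0.635).

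Differences near 0 of the brightest ACP5 probe changed sign with the scaling. Inter-site over non-pregnant was 0.13 with the percentile taken over probes detected on all arrays, 0.12 with quantile normalization and 0.11 in the authors' deposited table. Day 24 over day 13 at attachment sites was -0.018 with quantile normalization, -0.017 in the authors' deposited table and -0.014 with normexp. Normexp also gave 0.18 for day 24 over day 13 at inter-sites and -0.19 for the change of the site difference between those days. The day 18 site difference was -0.070 with quantile normalization and -0.077 in the authors' deposited table, where RBP4 day 18 over day 13 at attachment sites was -0.065 and -0.070. In that deposited table the columns of day 24 inter-site replicates 2 and 3 follow each other's scanner files. For the 3 dimmer ACP5 probes, day 24 over day 13 at attachment sites stayed positive in every setting run, at 1.37 to 2.92. They were called in 4, 4 and 3 of the 21 settings beside the main fit.

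For ACP5, slide as a fixed block gave 0.33 for day 24 over day 13 at inter-sites, slide as a random block gave 0.099 for day 24 over day 18 at attachment sites, and the on-off sets as a random block gave 0.045 for inter-site over non-pregnant and 0.012 for day 24 over day 13 at inter-sites. Probes A_72_P764549, A_72_P444003 and A_72_P755871 gave 0.28, 0.30 and 0.23 for inter-site over non-pregnant, 1.33, 2.32 and 1.94 for day 24 over day 18 at attachment sites, and 0.80, 1.32 and 1.01 for day 24 over day 13 at inter-sites. RBP4 probes A_72_P146486 and A_72_P531116 gave -0.097 and -0.33 for day 18 over day 13 at attachment sites.

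Without the 2 pregnant libraries that stood apart, RBP4 passed at attachment sites (2.92, adjusted p 0.000483) and inter-sites (3.04, 0.00140) against non-pregnant endometrium, and ACP5 at inter-sites was 1.07. The share of all probes called without these 2 libraries is not given here. Without all 3, RBP4 had 2.41 and 2.53, and ACP5 at attachment sites -0.20. In both fits the day 13 site difference was -0.20 for ACP5 and -0.12 for RBP4, and day 18 over day 13 at inter-sites was -0.088 and -0.17. Likewise, RBP4 day 24 over day 18 and over day 13 at inter-sites were 0.082 and -0.089, the change of the site difference to day 18 was 0.34 for both genes, and to day 24 from day 13 it was 0.57 for RBP4. Without all 3 and with slide as a fixed block these values were 2.22 (RBP4 attachment over non-pregnant), -0.44 (ACP5), -0.24 and -0.30, -0.020 and -0.22, 0.13 and -0.098, 0.29 for ACP5 and 0.45 for RBP4, and 0.62, with ACP5 day 24 over day 18 at attachment sites at 0.0023. With the on-off sets as a random block instead they were 2.40 and 2.53 (RBP4, both called), -0.21 (ACP5), -0.21 and -0.14, -0.11 and -0.20, 0.040 and -0.16, 0.34 for ACP5 and 0.38 for RBP4, and 0.60. In that fit 1.7% and 1.13% of all probes were called at attachment sites and inter-sites against non-pregnant endometrium. For day 24 over day 18 at attachment sites ACP5 probe A_72_P444003 passed there (adjusted p 0.0116 by limma). Probes A_72_P764549 and A_72_P755871 did not (0.0612 and 0.0553), and 9.33% of all probes were called.

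Leaving out 1 replicate at a time gave, for ACP5 and then RBP4, -0.20 to 1.46 and 2.41 to 3.42 for attachment over non-pregnant and -1.07 to 1.07 and -0.30 to 3.04 for inter-site over non-pregnant. The site difference was -0.20 to 1.44 and -0.12 to 3.22 on day 13, and -0.0041 to 0.26 for ACP5 on day 18. At attachment sites ACP5 day 24 over day 18 was -0.13 to 0.090. At inter-sites, day 18 over day 13 was -0.088 to 1.56 and -0.17 to 3.17, day 24 over day 13 was -1.20 to 0.71 and -1.10 to 2.24, and RBP4 day 24 over day 18 was -1.55 to 0.082. The change of the site difference was -1.31 to 0.34 and -3.003 to 0.34 to day 18, and -0.47 to 1.45 and -1.76 to 1.58 from day 13 to day 24. Only RBP4 inter-site over non-pregnant gained a call, without day 13 inter-site replicate 1.

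With replicate number as a block, RBP4 attachment over non-pregnant was 2.92 (adjusted p 0.185), and no call of either gene changed. That block joins same-numbered arrays over all 7 groups, so it does not test a pairing of sites within a sow. Deviations of same-numbered attachment and inter-site arrays correlated at -0.11 to 0.49, not all above 0.1, so the numbers were not taken as pairs. At the on-off probes the same-numbered inter-site array was the best match, or tied for it, for 6 of 9 attachment arrays, a hint from the data and not from the labels. Day 13 replicate 1 and day 24 replicate 3 were among the attachment arrays without such a match. Their same-numbered inter-site arrays were libraries that stood apart.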
